A study of Mus musculus with 15 samples.

Results

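The RNA of B2m and of 5 other genes of the MHC class I pathway (H2-D1, H2-K1, H2-T23, Tap1 and Tapbp) was followed through 15 bulk RNA-seq libraries of circulating extracellular vesicles (EVs) from mice. The 6 genes were taken by their symbols from the 43472 symbols counted in each library. The genes were selected on their pathway with the CPM levels of the 3 conditions already known, so their levels and fitted differences are given as a description of these libraries. The EVs came from 3 conditions, WT C57BL/6 mice (3 libraries), dystrophic Sgcb-null mice (6 libraries), which lack beta-sarcoglycan, and hypertrophic mice (6 libraries), whose muscles are enlarged. The hypertrophic genotype is MAGIC F1 in the labels and Mstn-null in the study's methods for these libraries, so it is called here by its condition alone. All mice were 3 to 6 months old, each library pooled the EVs of 2 to 3 mice, and the RNA was preamplified before 50-base single reads were made. For plasma, the methods list fewer mice per genotype than 6 separate pools of 2 to 3 mice would need. The 6 libraries of a condition may therefore not all be independent. The labels name serum and the methods plasma as the source. No source used here gives the background strain of the dystrophic and hypertrophic mice.

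MHC class I molecules display peptides from inside the cell to CD8 T cells and natural killer cells. A polymorphic heavy chain pairs with the invariant light chain beta-2 microglobulin, the product of B2m, and is filled with peptide in the endoplasmic reticulum, where TAP carries the peptides in and tapasin ties TAP to the empty heavy chain. Nearly all nucleated cells and platelets carry class I molecules. B2m also pairs with class I-like chains outside antigen presentation.

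The heavy chains are close copies of each other, and this bears on what a short read can count. Every stretch of 50 bases, the length of a read, was looked up without mismatches in all other genes of the GENCODE M21 annotation (GRCm38, the same build as mm10). In the main transcript of B2m (ENSMUSG00000060802.8, chr2:122147686-122153083, plus strand), 0 of 811 stretches occurred in another gene. Among annotated transcripts and without mismatches, the light chain thus had sequence of its own. For that reason bases 1 to 300 of its coding sequence of 357 bases are shown, all in lower case because no base is marked. Near matches and sequence outside the annotated transcripts were not searched.
B2m: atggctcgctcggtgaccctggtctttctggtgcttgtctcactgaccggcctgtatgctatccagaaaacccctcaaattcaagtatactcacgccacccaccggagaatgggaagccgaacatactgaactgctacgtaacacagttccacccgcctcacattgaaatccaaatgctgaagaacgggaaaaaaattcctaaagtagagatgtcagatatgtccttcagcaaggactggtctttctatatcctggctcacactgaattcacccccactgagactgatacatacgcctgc

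For the heavy chains the picture was different. Of the stretches of the main transcript, 294 of 2053 (14.3%) of H2-D1 (ENSMUSG00000073411.11), 138 of 1570 (8.79%) of H2-K1 (ENSMUSG00000061232.16) and 424 of 1423 (29.8%) of H2-T23 (ENSMUSG00000067212.8) also occurred in another gene. H2-D1 shared 109 stretches with H2-K1 and 101 with H2-T23, and it shared most with H2-Q1, at 152. The longest run of coding bases common to H2-D1 and H2-T23 was 145 bases, against 91 for H2-D1 and H2-K1 and 81 for H2-K1 and H2-T23. The copies were closest in exon 4, which codes for the membrane-proximal alpha 3 domain, and 175 bases of it are shown for the 3 heavy chains, with capitals where H2-K1 or H2-T23 differs from H2-D1. H2-D1 is shown at chr17:35265827-35266001 on the plus strand, H2-K1 at chr17:33997343-33997517 and H2-T23 at chr17:36030880-36031054, both on the minus strand.
H2-D1: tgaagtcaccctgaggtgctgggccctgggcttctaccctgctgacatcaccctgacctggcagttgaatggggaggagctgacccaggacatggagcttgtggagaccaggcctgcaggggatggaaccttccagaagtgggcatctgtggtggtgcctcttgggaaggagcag
H2-K1: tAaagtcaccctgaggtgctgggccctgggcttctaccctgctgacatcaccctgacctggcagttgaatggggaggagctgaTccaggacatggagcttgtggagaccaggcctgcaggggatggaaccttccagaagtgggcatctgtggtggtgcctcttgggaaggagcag
H2-T23: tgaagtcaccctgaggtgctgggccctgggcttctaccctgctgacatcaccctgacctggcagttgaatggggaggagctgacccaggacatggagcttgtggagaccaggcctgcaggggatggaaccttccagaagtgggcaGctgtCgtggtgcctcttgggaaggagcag

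H2-K1 and H2-T23 each differed from H2-D1 at 2 of these 175 bases. Of the 126 stretches in the window, 126 of H2-D1, 74 of H2-K1 and 111 of H2-T23 occurred in at least 1 other gene, and those of H2-D1 occurred in 24 other genes in all, 15 of them with H2 symbols. Reads from such stretches align at several places. Reads aligned at several places are listed apart from the gene counts in the deposited tables, at 0.727 to 1.71 per gene count, so the heavy chain counts rest on the parts of each transcript that are its own. Alleles that differ from the reference strain could lose further reads, which was not tested.

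The transporter subunit Tap1 (ENSMUSG00000037321.17) shared 188 of 2904 stretches (6.47%) with other genes, 163 of them with Psmb9, an immunoproteasome subunit gene. Tapbp (ENSMUSG00000024308.15), which codes for tapasin, shared 599 of 2849 (21%), of which 541 were in the gene model Gm19412. Without regard to strand, reads from these stretches cannot be assigned to either gene of a pair. Stretches were matched on both strands and the counting's use of strand is not given, so strand could separate some of these reads. Reads aligned at several places or ambiguous between genes are listed apart from the gene counts, so they may be lost to both genes.

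**Figure D1:**
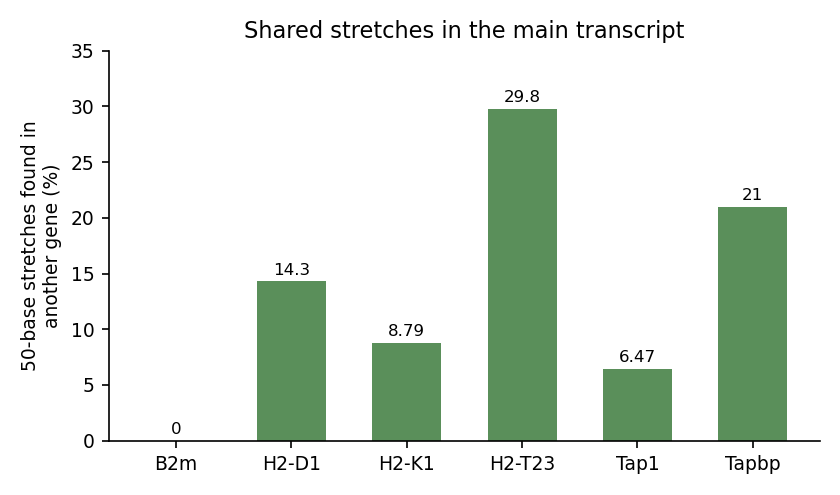
Bars show, for the main transcript of each gene, the percentage of 50-base stretches that also occur, without mismatch, in another gene of GENCODE M21. B2m stands at 0 and H2-T23 at 29.8.

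The libraries differed widely in depth, from 27227 to 32563362 reads counted on genes, with WT replicate 1 the lowest and dystrophic replicate 6 the highest. Levels are given in CPM, the reads of a gene scaled to a common library size. Where no read was seen, up to 3 could have been missed, which is 110.2 CPM in WT replicate 1 and 0.0921 CPM in dystrophic replicate 6. In 6 libraries (dystrophic replicates 4, 5 and 6, hypertrophic replicates 1, 2 and 3) the title carries a library number that the counts do not, and the numbers are crossed between both conditions. Conditions were taken from the labels, and the B2m levels are also given with these 6 libraries exchanged. The EV libraries held RNA of several blood cell types. The summed level of the 10 platelet genes examined, all counted, was 9768 to 35659 CPM per library, that of the reticulocyte genes 22933 to 155950 CPM, and that of the T cell genes 0 to 946 CPM. In such bulk samples, fewer EVs from a cell type and less RNA per EV cannot be told apart.

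The 6 genes reached very unequal levels. B2m had a mean level of 14852 CPM over the 15 libraries and ranked 8 among all genes by this mean, H2-D1 had 420.4 CPM (rank 286), H2-K1 214 CPM (rank 538), H2-T23 52.1 CPM (rank 2369), Tapbp 36.1 CPM (rank 3183) and Tap1 6.02 CPM (rank 7894). At least 1 read was counted in 15 libraries for B2m, 14 for H2-D1, 10 for H2-K1, 8 for H2-T23, 7 for Tapbp and 2 for Tap1. All 6 genes were counted together in 2 libraries only, dystrophic replicate 5 and hypertrophic replicate 6.

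Compared per kilobase of transcript, the order of the mean levels was the same. B2m stood at 17270 CPM per kilobase, H2-D1 at 200.02, H2-K1 at 132, H2-T23 at 35.4, Tapbp at 12.5 and Tap1 at 2.04. Only the first step of this order was seen in every library: B2m was above H2-D1 in 15 of 15, with a ratio of the means of 86.3, or 76.6 when each gene was divided by the number of its own 50-base stretches instead of its length. H2-D1 was above H2-K1 in 11 of 15 libraries, and H2-K1 was above H2-T23 in 9, below it in 2 and equal to it, at 0, in 4. H2-T23 and Tapbp could not be ordered, with H2-T23 higher in 4 libraries and lower in 5.

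**Figure D2:**
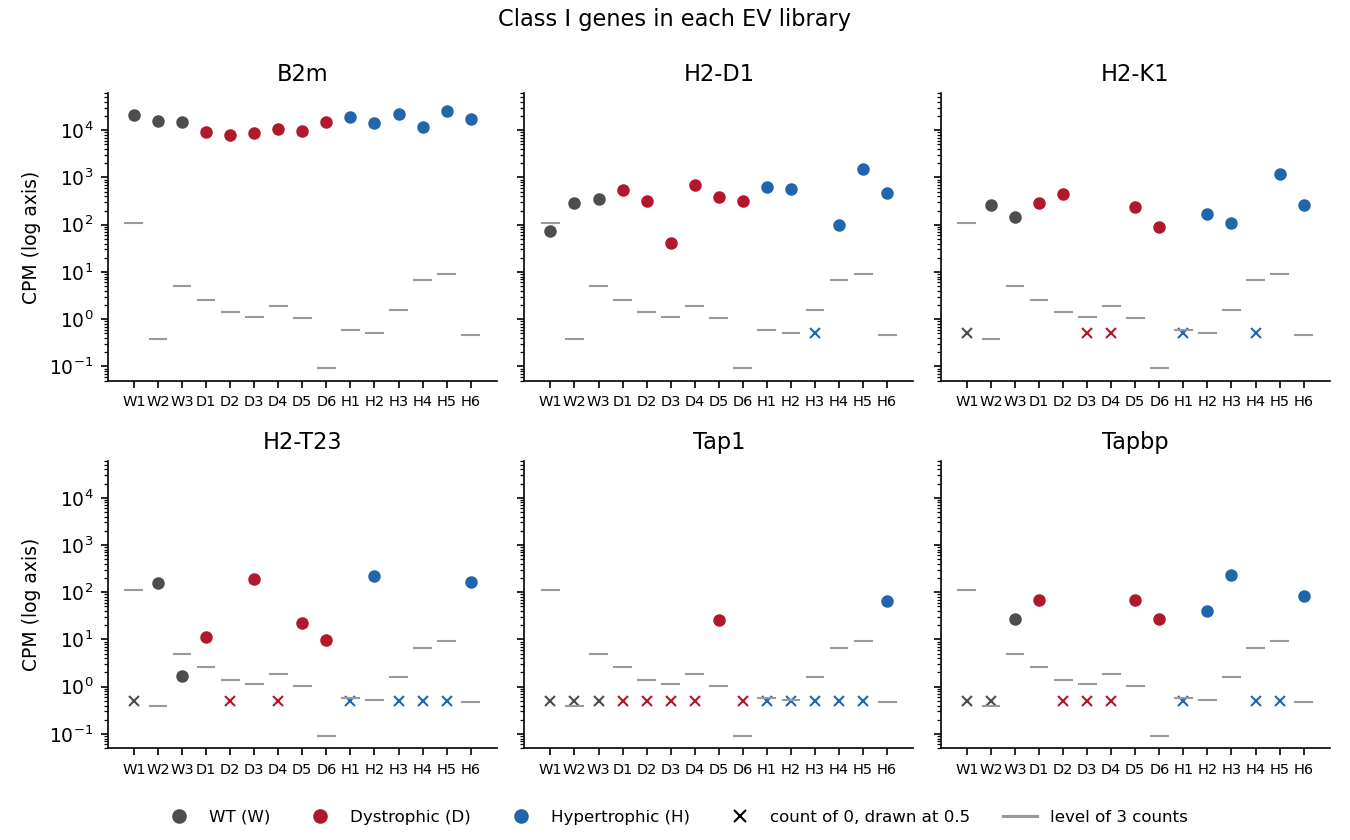
Each panel shows 1 gene, with its level in CPM on a log axis for each of the 15 libraries (W, WT; D, dystrophic; H, hypertrophic; numbers are replicates). Crosses mark libraries with a count of 0, drawn at 0.5, and grey lines the level of 3 counts. B2m lies between 7965 and 25113 CPM in all libraries, while each of the other genes has crosses in at least 1 condition.

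B2m, the light chain that all class I heavy chains share, was lower in each of the 6 dystrophic-derived libraries than in each of the 3 WT-derived libraries. Its level was 20752, 15523 and 15100 CPM in the WT-derived libraries. In dystrophic-derived EVs the lowest level was 7965, the median 9447 and the highest 14892 CPM. In hypertrophic-derived EVs the lowest level was 11692, the median 18575 and the highest 25113 CPM. The dystrophic-derived and WT-derived libraries thus did not overlap, by a margin that rested on dystrophic replicate 6 (14892 CPM) and WT replicate 3 (15100 CPM), whereas the hypertrophic-derived libraries spanned the WT range on both sides. Among the 6887 genes that passed the expression filter, 19 (0.276%) lay lower in every dystrophic-derived than in every WT-derived library. Only genes with a read in each WT-derived library could do so, and WT replicate 1 had reads of only 797 genes, so this share understates how common it was. The margin is narrow and the gene was listed with its levels known, so nothing is read from this count.

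On average, WT-derived EVs had 17125 ± 3148 CPM of B2m (SD, n = 3), those from dystrophic mice 10157 ± 2457 CPM (SD, n = 6) and those from hypertrophic mice 18411 ± 4875 CPM (SD, n = 6). The ratio of the means was 0.593 for dystrophic to WT, 1.81 for hypertrophic to dystrophic and 1.08 for hypertrophic to WT. In hypertrophic-derived EVs, 4 of 6 libraries lay above all dystrophic-derived libraries, and the exceptions were replicates 2 (14573 CPM) and 4 (11692 CPM). Counting error was small beside this spread, since even WT replicate 1, with 565 B2m reads, had an exact (Clopper-Pearson) 95% interval of 19091 to 22515 CPM. Such intervals and the limits for a count of 0 cover counting error only, because copies made in the preamplification are not independent molecules.

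The B2m difference depended on how the 6 crossed libraries were assigned. With these exchanged between dystrophic and hypertrophic, the dystrophic-derived range became 7965 to 21941 CPM and overlapped that of WT, the ratio of the means was 0.798 for dystrophic to WT, and it was 1.09 for hypertrophic to dystrophic. With only the 9 libraries whose numbers match, the ratio was 0.506 for dystrophic to WT (7965 to 9230 against 15100 to 20752 CPM) and 2.10 for hypertrophic to dystrophic. The library numbers in the titles fall into 2 series. The lower series held the WT-derived libraries and replicates 1 to 3 of the other conditions, and within it the mean was 17125 ± 3148 CPM in WT-derived, 8668 ± 644 CPM in dystrophic-derived and 18653 ± 3748 CPM in hypertrophic-derived EVs (SD, n = 3 each). Within the higher series the mean was 11645 ± 2834 CPM in dystrophic-derived and 18169.9 ± 6723 CPM in hypertrophic-derived EVs (SD, n = 3 each), and these ranges overlapped. By the numbers given to the counts, all hypertrophic-derived libraries and no others were in the higher series, so by that numbering the condition and the series cannot be told apart.

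The summed level of the platelet genes was also lowest on average in dystrophic-derived EVs, but not every gene of the list followed B2m. Of the 10 genes, 8 had a mean below that of WT in dystrophic-derived EVs, and Gp9 and Treml1 had a mean above it. In hypertrophic-derived against WT-derived EVs 8 had a higher mean, and Pf4 (6133 against 11208 CPM) and Clec1b (1197 against 2416 CPM) a lower one. The summed level of the 10 platelet genes was 20415 to 32174 CPM in WT-derived, 9768 to 21839 CPM in dystrophic-derived and 16006 to 35659 CPM in hypertrophic-derived libraries, and the reticulocyte genes, 7 of 8 of them in the files, were at 22933 to 88148, 47208 to 155950 and 29999 to 88291 CPM. Relative to the platelet sum, B2m stood at 0.531 to 0.740 in WT-derived, 0.475 to 0.815 in dystrophic-derived and 0.596 to 0.862 in hypertrophic-derived libraries, and these ranges overlapped. The part of the platelet share in the B2m level was not tested beyond this ratio.

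**Figure D3:**
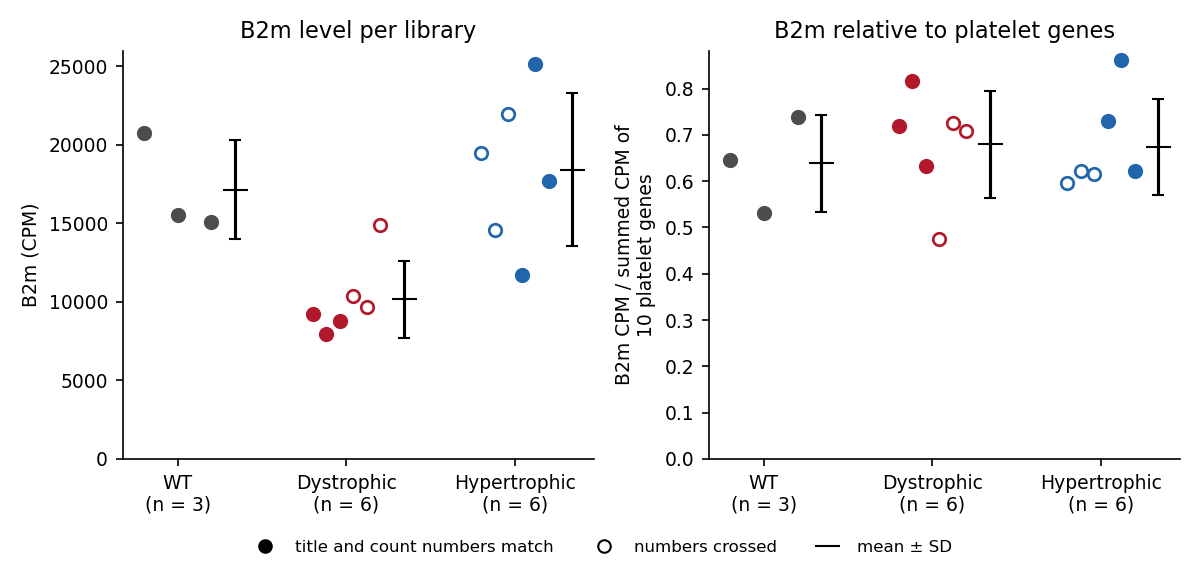
The left panel shows the level of B2m in CPM in each library, and the right panel the same level divided by the summed CPM of 10 platelet genes. Points are libraries, filled where the title and count numbers match and open where they are crossed, and the line with caps is the mean ± SD. On the left the dystrophic-derived libraries (7965 to 14892 CPM) lie below those of WT, and on the right the 3 conditions overlap.

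Of the 169 genes with a count in every library, B2m had the 7th smallest spread over all 15 libraries. Its SD was 0.68 on the log2 CPM scale against a median SD of 1.18. B2m also ranked 8 among all genes by mean level, and the part of abundance in this spread was not tested. The genes whose pattern over the 15 libraries was most like that of B2m, by the root mean square difference of log2 CPM centred on each gene's own mean, were Ppbp (0.35), Prdx6 (0.37), Cox5a (0.38), Ctla2a (0.45) and Nrgn (0.47), out of 168 genes compared. Ppbp codes for a platelet chemokine, Prdx6 for a peroxiredoxin and Cox5a for a subunit of cytochrome c oxidase. These distances describe libraries that share depth and composition, and they carry no test.

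The classical heavy chain H2-D1 presents peptides to CD8 T cells. Its level was 73.5, 289 and 356 CPM in the WT-derived libraries, of which the first rests on 2 reads (exact 95% interval 8.90 to 265 CPM). In dystrophic-derived EVs the lowest level was 40.3, the median 356 and the highest 699.9 CPM. In hypertrophic-derived EVs the lowest level was 0, the median 514 and the highest 1533 CPM. The 3 conditions overlapped fully, with means of 239 ± 147 (SD, n = 3), 384 ± 224 (SD, n = 6) and 548 ± 545 CPM (SD, n = 6), and without hypertrophic replicate 5 the hypertrophic mean was 351 CPM. Hypertrophic replicate 3 had 0 H2-D1 reads among 1906406, where the other hypertrophic-derived libraries would predict 1253.

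H2-K1, the other classical heavy chain of this list, was counted less evenly. It was at 0, 259 and 148 CPM in the WT-derived libraries. In dystrophic-derived EVs the lowest level was 0, the median 162 and the highest 448 CPM, and in hypertrophic-derived EVs the lowest was 0, the median 138 and the highest 1208 CPM. The conditions overlapped, with means of 136 ± 129.7 (SD, n = 3), 176 ± 178 (SD, n = 6) and 291 ± 460 CPM (SD, n = 6). The hypertrophic mean was 108 CPM without replicate 5, and the WT mean 74.0 CPM without replicate 2. The libraries at 0 included WT replicate 1, the shallowest of all, but also deeper ones. Hypertrophic replicate 1 had 0 H2-K1 reads among 5120128, where the other libraries of its condition would predict 1787, although it held 3212 reads of H2-D1.

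H2-T23 codes for Qa-1, a nonclassical heavy chain recognised by receptors of natural killer cells. It was at 0, 156 and 1.66 CPM in the WT-derived libraries, the last of these being 1 read. In dystrophic-derived EVs the lowest level was 0, the median 10.5 and the highest 195 CPM, and in hypertrophic-derived EVs 4 libraries were at 0 and the others, replicates 2 and 6, at 218 and 166 CPM. The means of 52.7 ± 89.9 (SD, n = 3), 39.8 ± 76.4 (SD, n = 6) and 64.0 ± 100.5 CPM (SD, n = 6) were smaller than their own SDs. In each condition most of the level came from 1 or 2 libraries, and the mean was 0.831 CPM in WT-derived EVs without replicate 2, 8.78 CPM in dystrophic-derived EVs without replicate 3 and 33.3 CPM in hypertrophic-derived EVs without replicate 2.

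The balance between the chains varied from library to library. The number of B2m reads per read of the 3 heavy chains ran from 9.16 in hypertrophic replicate 5 to 201 in hypertrophic replicate 3 and 282.5 in WT replicate 1, where it rests on 2 heavy chain reads. The H2-D1 to H2-K1 ratio of reads, in the 10 libraries with H2-K1 reads, ran from 0 to 3.55. The 3 heavy chains together reached 427 ± 322 CPM in WT-derived EVs (SD, n = 3), against 599 ± 228 CPM in dystrophic-derived (SD, n = 6) and 903 ± 973 CPM in hypertrophic-derived EVs (SD, n = 6). Without WT replicate 1 the WT mean was 605 CPM, above that of dystrophic-derived EVs, and without hypertrophic replicate 5 the hypertrophic mean was 535 CPM, so no order of the conditions is read from these sums.

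The genes of peptide loading were counted in few libraries. Tap1, which codes for a subunit of the peptide transporter, had 73 reads in dystrophic replicate 5 (25.3 CPM, exact 95% interval 19.8 to 31.8), 420 in hypertrophic replicate 6 (65.0 CPM, exact 95% interval 58.9 to 71.5) and 0 in the other 13 libraries. These 13 included dystrophic replicate 6, in which the limit of 3 counts is 0.0921 CPM. In the WT-derived libraries this limit is 110.2, 0.388 and 4.99 CPM, so no comparison of Tap1 with WT replicate 1 was possible at its depth.

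Tapbp was counted in 1 of 3 WT-derived, 3 of 6 dystrophic-derived and 3 of 6 hypertrophic-derived libraries. The WT-derived levels were 0, 0 and 26.6 CPM. The dystrophic-derived levels were 70.0, 69.9 and 26.9 CPM in replicates 1, 5 and 6, and the hypertrophic-derived levels were 39.8, 227 and 81.4 CPM in replicates 2, 3 and 6. All other libraries of these conditions were at 0, and the conditions overlapped.

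How often a gene was missing where its condition predicted it was counted for each gene and library, taking the mean CPM of the other libraries of the condition times the depth as the prediction. B2m was at 0 in 0 of 15 cases with at least 10 predicted reads, H2-D1 in 1 of 14, H2-K1 in 4 of 14, H2-T23 in 6 of 13, Tapbp in 7 of 13 and Tap1 in 6 of 6. The result for Tap1 was fixed by the rule. Where only 1 library of a condition has reads, that library is predicted at 0 and all others are at 0. For the 6 genes together this was 24 of 75 cases (32%), and for H2-K1, H2-T23, Tap1 and Tapbp 23 of 46 (50%). Over all genes, where the same rule applies to genes with reads in 1 library of a condition, it was 50850 of 90572 (56.1%). No test was made of this difference in shares.

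Differences between conditions were fitted with edgeR's quasi-likelihood test across 6887 genes and all 15 libraries, with a biological coefficient of variation of 3.04. Of the 6 genes, 5 passed the expression filter and Tap1 did not. In dystrophic against WT, 0 of the 5 passed a Benjamini-Hochberg adjusted p of 0.05, beside 1 of all genes tested (0.0145%). In hypertrophic against WT it was 0 of the 5 beside 2 (0.029%), and in hypertrophic against dystrophic 0 of the 5 beside 1 (0.0145%). At an unadjusted p under 0.05 the 5 genes also gave 0 in each comparison, beside 139 (2.02%), 552 (8.02%) and 823 (12%) of all genes tested. That count changed with the settings for B2m alone. Its unadjusted p in dystrophic against WT was 0.0110 without TMM, 0.00923 with the 9 libraries of matching numbers, 0.0251 without WT replicate 1 and 0.0178 without dystrophic replicate 6. In hypertrophic against dystrophic it was 0.000465 without TMM, 0.0227 without dystrophic replicate 6 and 0.0301 without hypertrophic replicate 4, and the adjusted p of edgeR in these fits was 0.123 to 0.842. DESeq2 called 0 of the 5, beside 933 (13.5%), 1031 (15%) and 243 (3.53%) of all genes in the same order of comparisons.

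In the edgeR fit B2m had log2 fold changes of -0.65 ± 0.37 in dystrophic against WT, -0.17 ± 0.38 in hypertrophic against WT and 0.48 ± 0.31 in hypertrophic against dystrophic (± standard error), with adjusted p = 0.433, 0.988 and 0.937 from the quasi-likelihood test. Scaled by library size without TMM, the trimmed mean scaling of edgeR, these values were -0.74, 0.12 and 0.85, with adjusted p = 0.414, 0.971 and 0.123 from edgeR, so the sign of the hypertrophic difference from WT depended on the scaling. The median log2 fold change of all genes tested was 1.38, 0.66 and -0.52 with TMM and 1.57, 1.02 and -0.37 without it. Relative to that median, B2m lay lower in both comparisons with WT and higher in hypertrophic against dystrophic under either scaling. The median itself depended on the WT-derived libraries and on the filter. In hypertrophic against WT it was 5.96 without WT replicate 2. Without the filter on low counts, B2m (0.00413) did not lie below the median of that comparison. Both comparisons with WT share the same 3 control libraries.

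The other genes had much wider errors. The log2 fold changes of H2-D1 were 0.55 (standard error 1.70), 0.59 (1.70) and 0.04 (1.35) in the same order of comparisons, and those of H2-K1 were 0.12 (2.15), 0.23 (2.16) and 0.11 (1.75). For H2-T23 they were -1.15 (2.96), 0.17 (3.08) and 1.33 (2.54), and without WT replicate 2 the first of these was 4.14. For Tapbp they were 1.58 (3.50), 2.23 (3.63) and 0.65 (2.64), and without WT replicate 3, the only WT-derived library with Tapbp reads, the first and second were 10.28 and 10.92. With all 15 libraries these genes had adjusted p-values of 0.934 to 1 in edgeR's quasi-likelihood test. In that fit each change was smaller than its own standard error, which restates the test because the error was worked back from its F statistic. Without WT replicate 3 the first and second changes of Tapbp were larger than theirs (7.14 and 7.29).

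**Figure D4:**
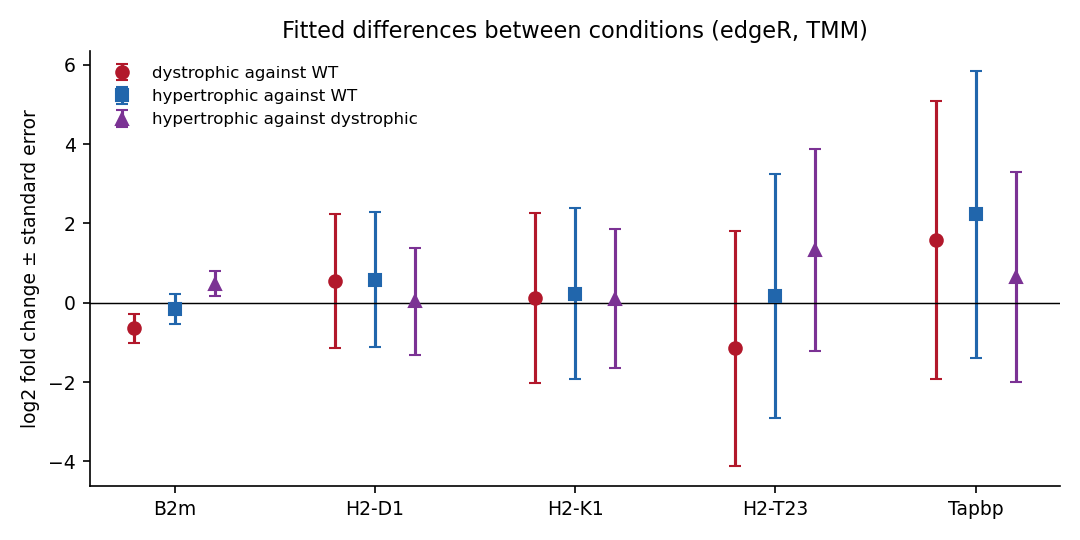
The vertical axis gives the fitted log2 fold change (edgeR, TMM scaling) with bars of 1 standard error, for the 5 genes that passed the expression filter and the 3 comparisons. The error of B2m is 0.31 to 0.38, that of the other genes 1.35 to 3.63, and 0 genes passed the adjusted threshold.

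The rest of the class I pathway was sparse as well. Of 54 other pathway genes present in the files, 47 had a read in at least 1 library, but 0 had a read in all 15 libraries, and the highest mean level was 169.5 CPM, that of Psmb8. In each comparison 29 of them passed the expression filter and 0 passed the adjusted threshold, while 1, 1 and 2 passed an unadjusted p of 0.05, beside 2.02%, 8.02% and 12% of all genes tested. The genes named are the 4 with the highest mean level of each list.

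Of 16 other heavy chains in the files, 11 had a read and 6 were tested. H2-T22, a nonclassical heavy chain, led with a mean of 132 CPM and reads in 10 libraries. H2-Q6 (18.0 CPM, 6 libraries), H2-Q7 (17.1 CPM, 5 libraries) and H2-T24 (14.0 CPM, 4 libraries) were far lower, and like the heavy chains above they share reads with their copies, so their levels are uncertain. H2-D1, at 420.4 CPM, thus stood above all other heavy chains by mean level. The medians of the 6 fitted log2 fold changes were 6.37, 5.95 and -0.74, beside the medians of all genes given above. The genes at the middle of the first of these were H2-Q7 and H2-T24, at 0.554 and 0 CPM in WT-derived EVs.

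The class I-like chains, which fold like heavy chains but serve other tasks, were nearly absent, although several of them also pair with B2m. Fcgrt, the heavy chain of the neonatal Fc receptor, had reads in 2 libraries (mean 15.4 CPM), Hfe, which takes part in iron sensing, in 4 (9.24 CPM), Procr, the endothelial protein C receptor, in 2 (3.07 CPM), and Cd1d1, which presents lipids, in 1 (0.484 CPM). Only Hfe was tested, with fitted log2 fold changes of 8.88, 8.89 and 0.00 against WT-derived libraries that were all at 0, so the first and second of these depend on the prior count of the fit.

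Of the 9 loading and trimming genes, all had a read and 5 were tested. Pdia3, a disulfide isomerase of the loading complex, had a mean of 103 CPM and reads in 8 libraries. Sec61b, a subunit of the protein translocation channel, had 80.1 CPM (10 libraries), and the chaperones Canx and Calr had 54.7 CPM (8 libraries) and 51.5 CPM (7 libraries). Their medians of fitted log2 fold changes were 0.33, 0.69 and 0.03.

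The immunoproteasome trims proteins into peptides suited to class I, and its 5 genes were all tested. Psmb8 and Psmb9, catalytic subunits, had means of 169.5 CPM (12 libraries) and 89.0 CPM (10 libraries), and Psme1 and Psme2, of the PA28 activator, had 148 CPM (8 libraries) and 110.4 CPM (12 libraries). Psme1 was at 0 in the 3 WT-derived libraries, with means of 269.5 CPM in dystrophic-derived and 99.99 CPM in hypertrophic-derived EVs, and it was the gene with an unadjusted p under 0.05 in both comparisons with WT (edgeR adjusted p = 0.433 and 0.267). The list's medians of fitted log2 fold changes were -0.23, 0.52 and -0.11.

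The transcription factors of class I genes gave 10 genes with a read and 7 tested. Nfkb1 had a mean of 135 CPM (11 libraries), Irf9, a mediator of interferon signalling, 74.5 CPM (8 libraries), Irf2 45.2 CPM (8 libraries) and Irf1, an activator of class I promoters, 32.7 CPM (6 libraries). Irf1 was at 0 in the WT-derived libraries, with means of 73.6 CPM in dystrophic-derived and 8.02 CPM in hypertrophic-derived EVs, with edgeR adjusted p = 0.433 and 0.432 against WT. The medians of the list were 2.23, 1.44 and -0.43.

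The receptors for class I on immune cells were the lowest in detection after the class I-like chains, with reads in at most 6 libraries. The CD8 co-receptor genes Cd8b1 and Cd8a had means of 36.8 and 36.4 CPM, each in 5 libraries and at 0 in WT-derived EVs, Pirb, an inhibitory receptor, had 25.4 CPM (5 libraries) and Klrd1, the partner chain of the Qa-1 receptor, 9.88 CPM (6 libraries). Klrd1 and Klrk1, an activating receptor of natural killer cells named here after its value was seen, had an unadjusted p under 0.05 in hypertrophic against dystrophic (log2 fold changes -7.65 and -8.40, edgeR adjusted p = 0.340 and 0.214). The medians of the list were 9.07, 8.95 and -2.24, beside 1.38, 0.66 and -0.52 over all genes tested. The first and second of these are the changes of Cd8b1 and Cd8a against WT-derived libraries that were all at 0, so they depend on the prior count of the fit. The summed level of the 7 T cell genes examined was 0 to 138 CPM in WT-derived and 244 to 946 CPM in dystrophic-derived libraries. In hypertrophic-derived libraries it was 0 to 475 CPM. This sum was thus lower in each WT-derived than in each dystrophic-derived library. WT replicate 1 was at 0, and its 27227 reads leave a count of 0 unresolved below 110.2 CPM. The share of all genes or sums separated in this direction is not given here, so nothing is read from the separation. The part of the T cell sum in the receptor levels was not tested.

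**Figure D5:**
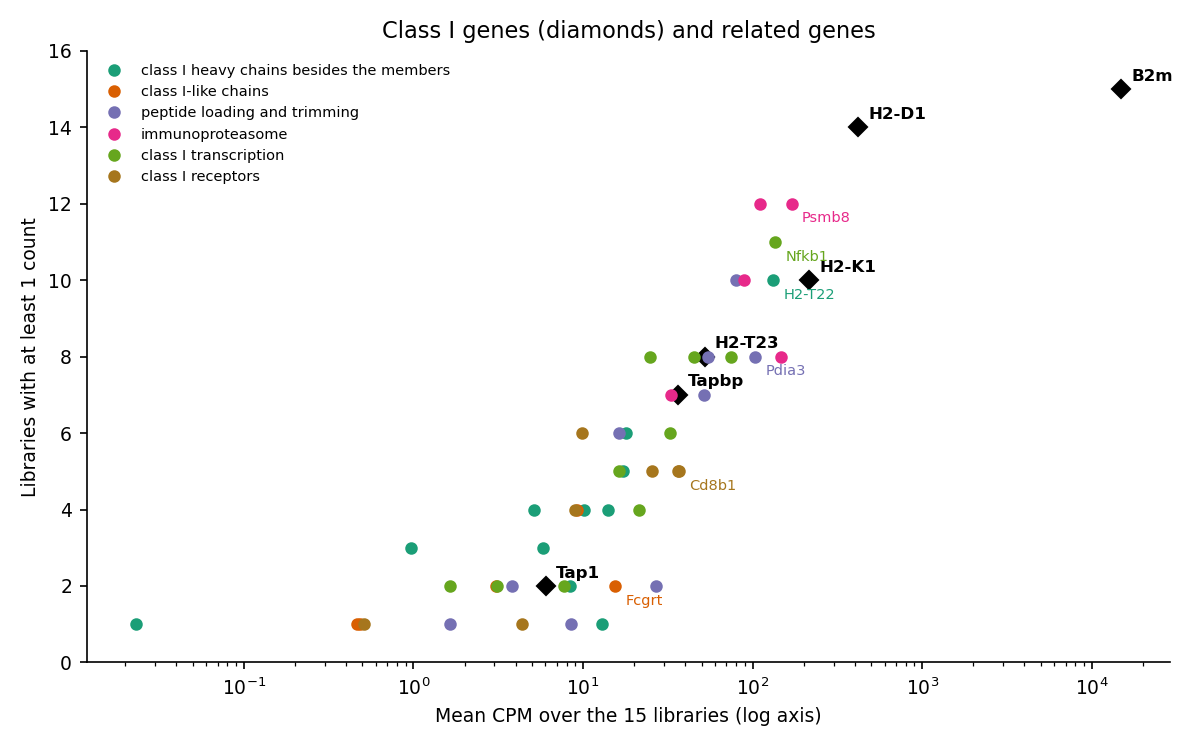
Each point is a gene, placed by its mean CPM over the 15 libraries (horizontal, log axis) and the number of libraries with at least 1 read (vertical). Diamonds are the 6 class I genes described here, circles the genes of 6 related lists, of which those with a read are drawn and the 1 of highest mean level per list is named. B2m alone reaches 15 libraries.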

How the data were processed

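RNA of circulating EVs (serum in the labels, plasma in the methods) was measured in 15 libraries, 3 WT-derived, 6 dystrophic-derived and 6 hypertrophic-derived. The authors aligned the reads with TopHat to mm10 and deposited raw counts per gene symbol, without normalization. HTSeq is named in the submitters' processing notes. The annotation and the counting's use of strand are not given in the sources used here, and the library kit differs between labels and methods. The 5 summary lines of each table, which name no gene and held 57.9% to 99.2% of its numbers, were left out. CPM was computed over all gene rows.

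Conditions came from the labels. Replicate numbers only name libraries, and p-values measure the spread between these pooled samples. The tests treat the libraries as independent, which the mouse numbers in the methods leave unsure. The 6 genes and the pathway lists were chosen with earlier results of these data known. Named genes were the 6, the 4 of highest mean CPM in each list, and the 5 nearest to B2m among genes counted in all libraries.

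Tests of counts used edgeR 4.0.16 (R 4.3.3), with TMM, filterByExpr, a quasi-likelihood fit of the 3 conditions to all 15 libraries without covariates, and Benjamini-Hochberg adjustment. The procedure was run on simulated counts that varied far less between libraries than these data. That run therefore tells nothing about its power here. The standard errors of edgeR changes were worked back from the log2 fold change and the F statistic of the quasi-likelihood test. log2 CPM used TMM scaling, the genes that passed the filter and a prior count of 2. Alternatives were library size without TMM, DESeq2 1.42.0, no filter, leaving out the 37 mitochondrially encoded and 11 hemoglobin genes, the exchange or omission of the 6 libraries with crossed numbers, each library left out and, for presence, at least 10 counts. Ratios of mean B2m levels, also within the number series of the titles, were added after seeing the data. The study names DESeq, which was not run. Transcripts came from GENCODE M21, and 50-base stretches were matched exactly, either as they stand or as their reverse complement.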

Additional observations from a re-analysis of the deposited data

Results flagged for a closer look

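Among the 12 groups of 6 libraries with a read of the gene (6 genes in 2 conditions), the highest library stood apart from the others by Dixon's test in 6. Chance flags about 1 in 20 groups of normally spread values, a rate that does not hold for groups with many libraries at 0, such as those of Tap1, in which a single library with reads is always picked out. B2m was at 14892 CPM in dystrophic replicate 6, the deepest library and 1 of those with crossed numbers, and the next highest was at 10381 CPM. H2-K1 was at 1208 CPM in hypertrophic replicate 5 and next at 262 CPM. H2-T23 was at 195 CPM in dystrophic replicate 3 and next at 22.8 CPM. Tapbp was at 227 CPM in hypertrophic replicate 3 and next at 81.4 CPM. Tap1 was at 25.3 CPM in dystrophic replicate 5 and at 65.0 CPM in hypertrophic replicate 6, each the only library of its condition with a read.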

How the results depend on the processing

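Under all 7 kinds of alternative, 0 of the class I genes tested passed the adjusted threshold in any comparison, while DESeq2 called 933, 1031 and 243 of all genes (dystrophic against WT, hypertrophic against WT, hypertrophic against dystrophic) where edgeR called 1, 2 and 1. Moves of the ratio of mean B2m levels were judged against the combined SD between libraries, which is wider than a standard error. The ratio moved by more than this only with the labels of the 6 crossed libraries exchanged. It was then 0.798 for dystrophic to WT and 1.09 for hypertrophic to dystrophic. With only the 9 libraries of matching numbers it was 0.506 and 2.10. With each library left out it was 0.538 to 0.663 and 1.68 to 1.999. Of 315 alternative log2 fold changes, 34 changed sign. For B2m in hypertrophic against WT they were 0.12 without TMM, 0.00413 without a filter and 0.17 with DESeq2. With the labels exchanged they were -0.079 for H2-K1 in dystrophic against WT, -0.77 for H2-T23 in hypertrophic against WT, and -0.75 for H2-T23 and -0.52 for Tapbp in hypertrophic against dystrophic. With only the 9 libraries of matching numbers H2-T23 was at -0.080 in hypertrophic against WT, and without a filter H2-K1 was at -0.10 in hypertrophic against dystrophic. The other sign changes came from leaving out 1 library. The ranges were then, in dystrophic against WT, -0.45 to 0.68 for H2-K1 and -2.53 to 4.14 for H2-T23. In hypertrophic against WT they were -0.33 to 0.040 for B2m, -0.54 to 0.97 for H2-K1 and -0.84 to 5.41 for H2-T23. In hypertrophic against dystrophic they were -0.22 to 0.30 for H2-D1, -0.66 to 0.37 for H2-K1 and -0.34 to 1.15 for Tapbp. The cause of these changes was not tested. The replicate numbers carry no pairing, so no paired analysis was possible because the labels give none. Depth limits WT replicate 1 most, where 27227 reads leave the 4 genes at 0 unresolved below 110.2 CPM.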
